A study of Mus musculus with 8 samples.

Results

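Transforming growth factor β (TGF-β) is secreted in a latent form, and 9 genes that store it in the matrix, hold it at the cell surface or release it were followed here in neural stem and progenitor cells (NSPCs) of the mouse cortex. The genes were the 4 latent TGF-β binding proteins Ltbp1, Ltbp2, Ltbp3 and Ltbp4, the surface anchors Nrros and Lrrc32, the activator Thbs1, and the fibrillins Fbn1 and Fbn2. They were chosen by name, with earlier results of these data known, and each symbol matched 1 of the 55385 genes measured. RNA was measured in 4 iKO and 4 WT libraries of NSPCs collected by flow cytometry from the cortex at postnatal day 7. The iKO mice carried Nestin-CreERT2, a floxed Ash2l allele (Ash2lf/f) and tdTomato. The WT mice carried Nestin-CreERT2 and tdTomato without the floxed allele, so all 8 libraries share the Cre and the reporter. CreERT2 is a recombinase that tamoxifen activates, here driven by the promoter of Nestin, an intermediate filament gene of neural progenitors, and ASH2L belongs to the enzyme complexes that place methyl groups on lysine 4 of histone H3. The replicates are called biological in the series text, but whether each library came from a separate animal is not given, so the p-values reflect the spread among these 8 libraries, part of which may be technical.

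TGF-β leaves the cell bound non-covalently to its own propeptide, which masks it from its receptors. LTBP1, LTBP3 and LTBP4 bind that propeptide by disulphide bonds and anchor it in the extracellular matrix along fibrillin microfibrils, whereas LTBP2 lies on microfibrils without binding latent TGF-β. NRROS, also called LRRC33, holds latent TGF-β on microglia and macrophages, where integrin αvβ8 on neural cells can release it, and LRRC32, also called GARP, does so on regulatory T cells, platelets and endothelium. Thrombospondin 1, the product of Thbs1, is a secreted protein that can release TGF-β from its propeptide.

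Ash2l, the targeted gene, was lower in all 4 iKO libraries, at 7.13 ± 0.714 against 17.6 ± 1.33 TPM (transcripts per 1000000 transcripts; SD, n = 4 per group; limma log2 fold change -1.20, adjusted p = 3.82e-06). Each library summed to 1000000 TPM, which keeps no sequencing depth, and 16089 to 16616 genes reached 1 TPM. Of 16413 genes tested, 52.6% passed a Benjamini-Hochberg adjusted p of 0.05 in limma, 20.7% higher and 31.9% lower in iKO. This split depended on scaling: 39.3% of the genes called were higher as deposited, 49.6% with trimmed mean factors, 49.7% with quantile normalization, 53.4% with a length and GC trend removed and 50.6% in the authors' deposited table. A sex score, the mean log2(TPM + 1) of 4 Y-linked genes minus that of Xist, lay between -0.82 and -0.26 in the iKO libraries and between 0.57 and 1.01 in the WT libraries, so sex composition and genotype cannot be told apart. The cell type labelled was present by its markers, with Nes at 59.6 and Sox2 at 7.14 TPM in WT, but markers of other cells were present in every library as well. Beside those of NSPCs, the highest sums were those of astrocyte markers, many of which postnatal progenitors share, at 2998 to 3155 TPM in iKO libraries and 3646 to 3749 TPM in WT libraries (4 of 6 lower, 1 higher), and of oligodendrocyte lineage markers, led by Olig1 at 1492 TPM in WT. Markers of microglia, endothelium, pericytes and fibroblasts were also present.

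Among the 9 genes, the matrix anchor Ltbp4 was higher in iKO, and Ltbp3, Nrros and Fbn1 were lower. Ltbp1, Lrrc32, Thbs1 and Fbn2 did not pass the test, and Ltbp2 was too low to enter it. That makes 4 of 8 tested genes called, 1 higher and 3 lower, against 52.6% of all genes tested, so the share called is near the background and is not a result about these genes. Groups did not overlap for 4 of the 8 tested genes, against 49.2% of all genes tested. The median log2 fold change of the 8 was -0.15, and that of all genes tested was -0.06. Fbn1 passed the entry filter (1 TPM in 4 libraries) only through the WT libraries, where it is higher, so its count and that median are descriptions. Fewer cells of a type and less RNA per cell cannot be told apart in these bulk samples.

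**Figure D1:**
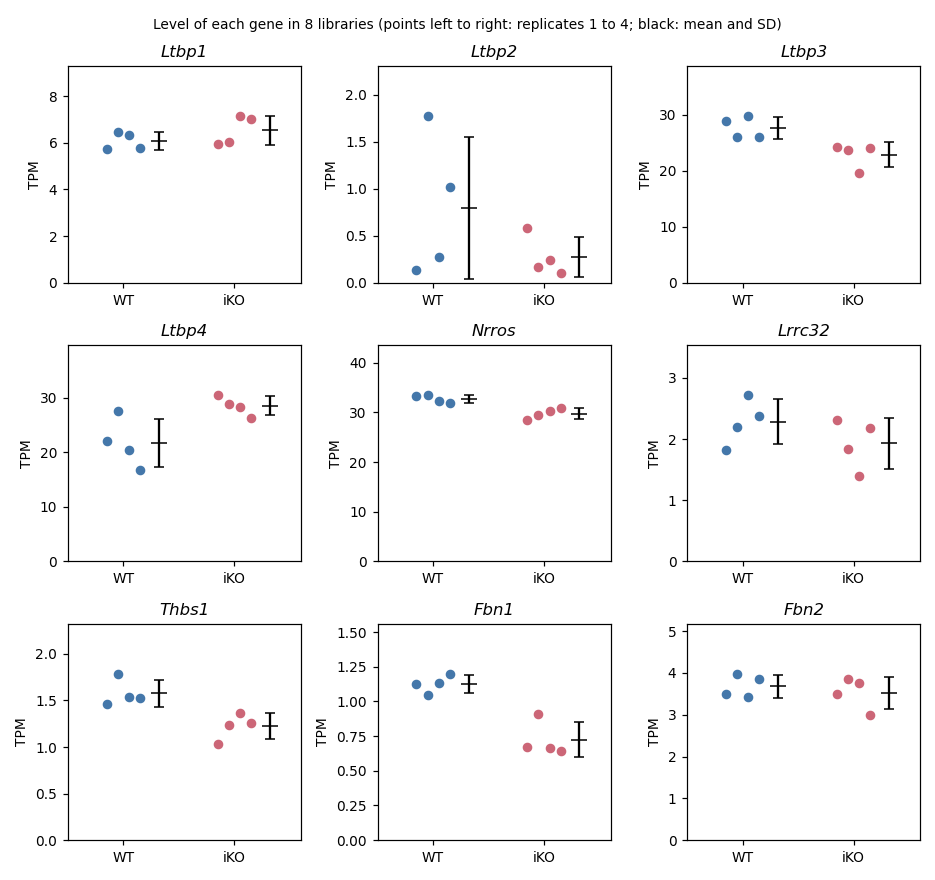
TPM (y axis, from 0) of the 9 genes in the 4 WT and 4 iKO libraries; points are libraries in replicate order, and the black mark is the mean with the SD. Ltbp3, Nrros, Thbs1 and Fbn1 show no overlap between groups, and Ltbp4 overlaps through WT replicate 2 at 27.5 TPM.

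The sequences before the starts of the 4 genes that passed are shown because ASH2L acts at promoters, mostly those rich in CG dinucleotides. Each is the 250 bases before the transcription start in RefSeq on GRCm38.p6, 5′ to 3′ on the strand of the gene, with CG dinucleotides in capitals. The build behind the deposited values is not given in the sources used here. For Ltbp4, which has 3 starts in that table, the one farthest 5′ is shown.
Ltbp4, chr7:27337613-27337862, minus strand: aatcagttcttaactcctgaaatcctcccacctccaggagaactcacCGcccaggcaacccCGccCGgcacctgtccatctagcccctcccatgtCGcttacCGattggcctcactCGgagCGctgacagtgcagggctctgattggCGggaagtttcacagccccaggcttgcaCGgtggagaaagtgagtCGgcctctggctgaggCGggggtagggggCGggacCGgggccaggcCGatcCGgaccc
Ltbp3, chr19:5740650-5740899, plus strand: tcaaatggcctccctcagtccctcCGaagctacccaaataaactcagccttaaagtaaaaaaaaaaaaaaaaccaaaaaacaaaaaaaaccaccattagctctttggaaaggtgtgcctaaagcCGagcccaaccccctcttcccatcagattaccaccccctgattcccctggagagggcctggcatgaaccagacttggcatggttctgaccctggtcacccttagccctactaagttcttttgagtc
Nrros, chr16:32165595-32165844, minus strand: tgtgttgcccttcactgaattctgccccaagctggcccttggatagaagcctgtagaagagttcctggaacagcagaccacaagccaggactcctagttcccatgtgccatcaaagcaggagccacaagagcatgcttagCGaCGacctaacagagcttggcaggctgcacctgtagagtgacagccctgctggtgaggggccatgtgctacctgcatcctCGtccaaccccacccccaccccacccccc
Fbn1, chr2:125506439-125506688, minus strand: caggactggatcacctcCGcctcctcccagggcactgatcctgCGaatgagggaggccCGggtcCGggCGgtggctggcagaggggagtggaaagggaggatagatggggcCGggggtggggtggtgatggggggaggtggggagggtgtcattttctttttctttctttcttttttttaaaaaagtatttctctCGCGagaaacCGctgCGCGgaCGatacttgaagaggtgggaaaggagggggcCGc
The 4 windows differ in CG content. The Ltbp3 window held 2 CG dinucleotides and the Nrros window 3, while the Fbn1 window held 13 and the Ltbp4 window 15. The median over 32851 such windows was 6. The other starts of Ltbp4 had 28 and 29, the windows of Ltbp1 had 12 and 7, and that of Ltbp2 had 16. RefSeq windows matched 6 of the 9 genes, and Thbs1, Lrrc32 and Fbn2 had no entry. Letters bound by ONECUT factors, which the series title names, were searched on both strands as ATTGAT and ATCGAT. Neither was found in the 9 windows of these genes, against 6.72% and 0.728% of all windows. CAGACA, letters that SMAD proteins bind, lay in 1 of the 9 windows, that of the downstream start of Ltbp1, against 17.1% of all windows.

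The binding proteins Ltbp3 and Ltbp4 were the most abundant of their family, and they moved in opposite directions. Ltbp3, a carrier of latent TGF-β in bone and vessel matrix, stood at 24.2, 23.7, 19.6 and 24.1 TPM in iKO replicates 1 to 4 and at 28.9, 26.0, 29.7 and 26.1 TPM in WT replicates 1 to 4. Every iKO library lay below every WT library. The mean was 22.9 ± 2.23 against 27.7 ± 1.91 TPM (SD, n = 4), a log2 fold change of -0.27 on the log2(TPM + 1) scale (SE 0.0773, limma adjusted p = 0.0178). The call held when each library was left out in turn but not under other scalings, with an adjusted p of 0.0512 with trimmed mean factors and 0.0526 with quantile normalization. The authors' deposited table gave -0.13 with an adjusted p of 0.103.

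Ltbp4, which anchors latent TGF-β and helps assemble elastic fibres, stood at 30.5, 28.9, 28.3 and 26.3 TPM in iKO and at 22.0, 27.5, 20.5 and 16.8 TPM in WT. WT replicate 2 reached into the iKO range and the other WT libraries lay below it. The mean was 28.5 ± 1.73 against 21.7 ± 4.45 TPM (SD, n = 4), a log2 fold change of 0.40 (SE 0.126, 95% interval 0.11 to 0.68, limma adjusted p = 0.0262). The WT libraries carried most of the spread, and the call was lost in 4 of 8 fits that left out a library: iKO replicate 1 (adjusted p = 0.0649), 2 (0.0556) or 3 (0.0509), or WT replicate 3 (0.059). Without WT replicate 2 the log2 fold change was 0.51 (adjusted p = 0.00247), and without WT replicate 4 it was 0.29 (adjusted p = 0.0432). The authors' deposited table gave 0.47 with a standard error of 0.0615 and an adjusted p of 2.66e-13. GENCODE M21 lists no opposite-strand gene that shares exon bases with Ltbp4; for genes that have one, the authors' counting is not stated to use strand.

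Ltbp1, the founding member of the family, showed no change that passed. It stood at 5.94, 6.04, 7.13 and 7.02 TPM in iKO and at 5.73, 6.45, 6.35 and 5.79 TPM in WT, with overlapping groups. Its log2 fold change was 0.09 (95% interval -0.09 to 0.26, limma adjusted p = 0.363). Quantile normalization gave 0.21 with an adjusted p of 0.0403, so there the gene passed. Ltbp2 was near the limit of detection, at 0.586, 0.171, 0.238 and 0.0992 TPM in iKO and at 0.132, 1.77, 0.278 and 1.02 TPM in WT. WT replicates 2 and 4 stood above all other libraries, and the groups overlapped (exact two-sided permutation p = 0.257; the smallest possible is 0.0286). The authors' mean normalized signal for Ltbp2 was 10.9, so few reads lie behind these values. D030025P21Rik, on the opposite strand, shares 764 exon bases with Ltbp2 and averaged 0.666 TPM in the iKO and 0.639 TPM in the WT libraries.

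The summed TPM of the 4 Ltbp genes was alike in range, 55.2 to 61.2 in iKO and 49.7 to 61.8 in WT, while its make-up differed. Ltbp4 held 45.7% to 51.2% of the sum in iKO and 33.8% to 44.6% in WT. Ltbp3 held 35.4% to 41.9% in iKO and 42.1% to 52.5% in WT. The ratio of Ltbp4 to Ltbp3 was 1.09 to 1.45 in iKO and 0.644 to 1.06 in WT, so Ltbp4 was the more abundant in every iKO library and, of the WT libraries, in replicate 2. These ratios were formed after the levels were seen and are given without a test. Ltbp1 kept 9.7% to 12.9% of the sum in iKO and 10.1% to 11.6% in WT.

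**Figure D2:**
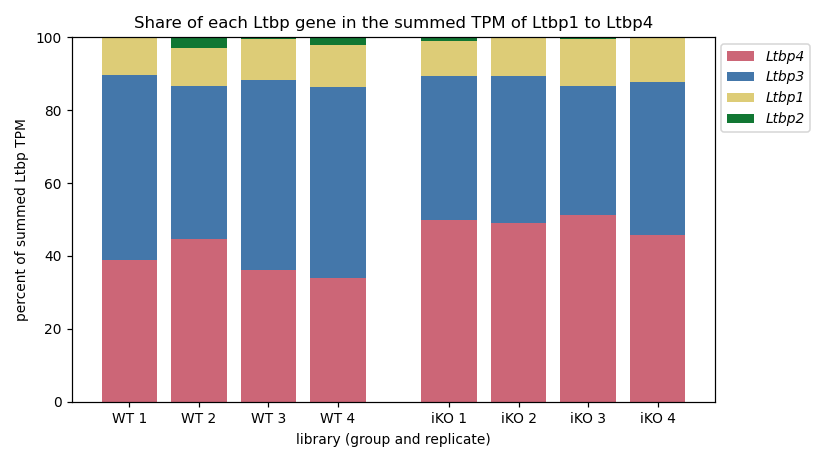
Percent of the summed TPM of Ltbp1 to Ltbp4 (y axis) held by each gene in every library (x axis). Ltbp4 holds 45.7% or more in each iKO library and at most 44.6% in the WT libraries.

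Of the surface anchors, Nrros was the most abundant of the 9 genes in the mean of both groups, and Lrrc32 was among the low ones. Nrros stood at 28.4, 29.5, 30.2 and 30.9 TPM in iKO and at 33.2, 33.5, 32.4 and 31.8 TPM in WT. All iKO libraries lay below all WT libraries, by a narrow margin. The mean was 29.8 ± 1.06 against 32.7 ± 0.756 TPM (SD, n = 4), a log2 fold change of -0.13 (SE 0.0378, limma adjusted p = 0.0161), and the mean TPM changed by -9.05%. Nrros passed in each of the 8 fits that left out 1 library, but not with trimmed mean factors (-0.07, adjusted p = 0.137), with quantile normalization (-0.07, adjusted p = 0.128) and with a length and GC trend removed (-0.03, adjusted p = 0.472). The authors' deposited table gave -0.05 with an adjusted p of 0.459.

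Markers of microglia and macrophages, the cells that carry NRROS protein, were mostly lower in iKO too. Of 12 such markers, 9 were lower in iKO and 1 was higher, where 31.9% of all genes tested were lower and 20.7% higher. The authors' deposited table called 7 of the 12 lower and none higher, against 16.7% lower and 17.1% higher of the 29420 genes tested there. Their median log2 fold change was -0.46, and their summed level was 588 to 604 TPM in the iKO libraries and 722 to 777 TPM in WT. Cx3cr1 and P2ry12, receptors of microglia, fell from 46.8 to 36.7 and from 43.4 to 25.9 TPM, and Csf1r, the receptor for colony stimulating factor, fell from 60.2 to 40.1 TPM. None of the 12 was at 0 in all libraries. Nrros amounted to 4.74% to 5.11% of the summed markers in iKO and to 4.31% to 4.59% in WT, a higher share in every iKO library. The part of these cells in the level of Nrros was not tested.

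Lrrc32 stood at 2.32, 1.83, 1.39 and 2.17 TPM in iKO and at 1.83, 2.20, 2.72 and 2.38 TPM in WT. The groups overlapped, and the log2 fold change was -0.17 (95% interval -0.47 to 0.13, limma adjusted p = 0.306). Endothelial markers, in cells where GARP is known, rose in 10 of 10 cases, where 20.7% of all genes tested were higher. Their median log2 fold change was 0.65, and their summed level was 897 to 957 TPM in iKO against 509 to 521 TPM in WT. Cldn5, which encodes the tight junction protein claudin 5, stood at 627 TPM in iKO against 335 TPM in WT. Ltbp4 amounted to 2.75% to 3.26% of that sum in iKO and to 3.30% to 5.28% in WT. The part of endothelial cells in the levels of Ltbp4 and Lrrc32 was not tested.

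Thbs1, the activator, stood at 1.04, 1.23, 1.36 and 1.26 TPM in iKO and at 1.46, 1.79, 1.54 and 1.53 TPM in WT. All iKO libraries lay below all WT libraries, yet the gene did not pass across the table. The log2 fold change was -0.21 (SE 0.0908, 95% interval -0.42 to -0.01, limma adjusted p = 0.0772), and the authors' deposited table gave -0.29 with an adjusted p of 0.115. The other thrombospondins and their receptors had 3 of 4 tested genes lower and none higher, where 31.9% of all genes tested were lower. With trimmed mean factors, with quantile normalization and with a length and GC trend removed, 2 of the 4 were lower. Fewer of all 16413 genes tested were lower there too: 4285 with trimmed mean factors and 4233 with quantile normalization, against 5237 as deposited. With the length and GC trend removed, 3926 of 16402 were lower. Thbs4 fell from 13.9 to 9.27 TPM and Cd47, a thrombospondin receptor gene, from 237 to 203 TPM. Thbs3 fell from 11.8 to 7.54 TPM (adjusted p = 0.0417), a call lost in 7 of 8 fits that left out a library. Its groups overlapped through iKO replicate 2 at 11.9 TPM. For Thbs3 the authors' deposited table gave -0.63 with an adjusted p of 6.23e-06.

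Of the fibrillins, which form the microfibrils that hold LTBPs, Fbn2 was the more abundant, and Fbn1 lay near the 1 TPM entry minimum. Fbn1 stood at 0.675, 0.910, 0.664 and 0.646 TPM in iKO and at 1.12, 1.05, 1.13 and 1.20 TPM in WT. No iKO library reached the lowest WT library. The mean was 0.724 ± 0.125 against 1.13 ± 0.0631 TPM (SD, n = 4), a log2 fold change of -0.30 on the log2(TPM + 1) scale (a scale that shrinks differences between low values; SE 0.0952, limma adjusted p = 0.0244), and the mean TPM changed by -35.7%. Leaving out iKO replicate 1, 3 or 4 ended the call of Fbn1, with adjusted p-values of 0.0541, 0.0556 and 0.0577, and with any WT library left out Fbn1 did not enter the test. With trimmed mean factors the call of Fbn1 held (-0.28, limma adjusted p = 0.0374). Quantile normalization gave -0.20 (adjusted p = 0.110), and removing a length and GC trend gave -0.19 (adjusted p = 0.119). The size moved with the pseudocount, from -0.10 at 5 to -0.58 at 0.1. Since the gene entered only through the WT libraries, where it is higher, this test is no support on its own, and without the filter the adjusted p was 0.0247. The authors' deposited table gave -0.56 with an adjusted p of 0.000333. Gm9913, on the opposite strand, shares 2442 exon bases with Fbn1 and averaged 0.260 TPM in the iKO and 0.147 TPM in the WT libraries.

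Fbn2, the fibrillin best known from embryonic tissue, gave different answers in the 2 deposited tables. In TPM it stood at 3.49, 3.85, 3.76 and 3.00 in iKO and at 3.49, 3.98, 3.42 and 3.85 in WT, with overlapping groups and a log2 fold change of -0.05 (95% interval -0.25 to 0.14, limma adjusted p = 0.639). The direction turned without iKO replicate 4 (0.01), with quantile normalization (0.07) and with a length and GC trend removed (0.05). The authors' deposited table gave -0.33 with a standard error of 0.0912 and an adjusted p of 0.00107. The ratio of Fbn2 to Fbn1 in TPM was 4.23 to 5.66 in iKO and 3.01 to 3.81 in WT.

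**Figure D3:**
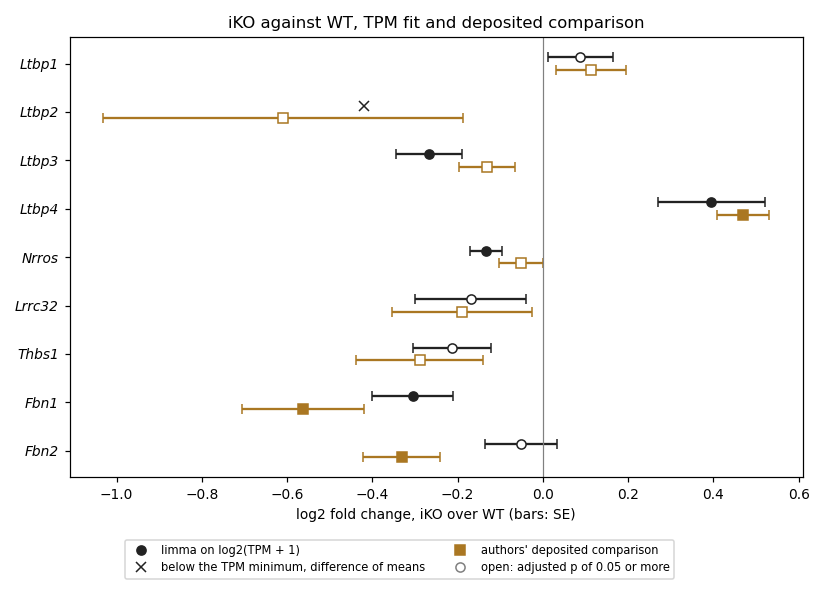
Log2 fold change of iKO over WT (x axis, bars are SE) for the 9 genes, from limma on log2(TPM + 1) (black) and from the authors' deposited comparison (brown); filled symbols have an adjusted p under 0.05. Ltbp4 and Fbn1 are filled on both, Ltbp3 and Nrros in TPM only, and Fbn2 in the deposited comparison only.

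The authors' deposited table called 3 of the 9 genes, Ltbp4 higher and Fbn1 and Fbn2 lower, against 33.9% of the 29420 genes tested there (17.1% higher and 16.7% lower). Ltbp4 and Fbn1 were the 2 genes called in the same direction in both, and the sign was shared for 9 of 9 genes. Fbn1 entered the limma fit only through the WT libraries. Both sources come from the same libraries, so the second is no independent support.

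By level per transcript length, the order in WT was Nrros, Ltbp3, Ltbp4, Ltbp1, Fbn2, Lrrc32, Thbs1, Fbn1 and Ltbp2. Neighbours in this order overlapped in the WT libraries for Ltbp3 and Ltbp4 and for Fbn1 and Ltbp2. In iKO, Ltbp4 stood before Ltbp3 and overlapped with Nrros, and no other neighbours overlapped. The sum of all 9 genes was 92.6 to 97.1 TPM in the iKO libraries and 90.5 to 104 TPM in WT. By Pearson correlation of log2(TPM + 1) over the 8 libraries, the genes most like Nrros were Stard9, Pcdhgc4 and Tmem115 (r of 0.98 to 0.99), those most like Fbn1 were Gpsm1, Ell and Smarca2 (0.99), those most like Ltbp3 were Rev3l, Tmem41b and Heatr5a (0.95 to 0.96), and those most like Ltbp4 were Rmdn3, C2cd5 and Rcc1l (0.95 to 0.96). For the others they were Smoc1, Srgap2 and Wwp1 for Ltbp1, Nup43, Cwf19l2 and Cyb561d1 for Lrrc32, M6pr, Sema4d and Zbtb45 for Thbs1, and Cadps, Tbc1d16 and Cir1 for Fbn2. They were picked as the highest values over all genes in 8 libraries that share the group difference, so they are descriptions.

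Of 83 genes in 8 lists by role, 74 were tested, 11 were higher (20.7% of all genes tested were) and 38 lower (31.9%), and 25 did not pass. The lists were chosen with earlier results of these data known, so their counts here and below are descriptions. The counts higher and lower were 11 and 33 with trimmed mean factors and 14 and 29 with quantile normalization. They were also 14 and 29 with a length and GC trend removed. Over all 16413 genes tested they were 3392 and 5237 on TPM as deposited and 4224 and 4285 with trimmed mean factors. Quantile normalization gave 4175 and 4233 of these, and removing the length and GC trend gave 4497 and 3926 of 16402. The authors' deposited table called 14 and 37 genes of the lists, against 17.1% and 16.7% of the 29420 genes tested there. The median log2 fold change of the 74 was -0.20, against -0.06 for all genes tested. Of the ligands that the latent complex holds, Tgfb3 fell from 13.7 ± 0.666 to 9.07 ± 0.280 TPM (SD, n = 4), Tgfb2 averaged 25.7 TPM in the iKO and 27.6 TPM in the WT libraries without passing (limma adjusted p = 0.104), and Tgfb1 stood at 0.397 and 0.343 TPM, below the filter.

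Integrins that release latent TGF-β had 3 of 5 tested genes lower and none higher, where 31.9% of all genes tested were lower. Itgb1, the β1 subunit, fell from 227 to 185 TPM, Itga8 from 2.39 to 0.96 TPM and Itgb5 from 24.4 to 21.1 TPM, a call lost with a length and GC trend removed (-0.12, adjusted p = 0.0714). The subunits of αvβ8 did not pass: Itgav averaged 25.5 TPM in the iKO and 27.1 TPM in the WT libraries (limma adjusted p = 0.179). Itgb8, named after its values were seen, stood at 26.6 and 26.5 TPM (log2 fold change 0.01, limma adjusted p = 0.917), and passed with a length and GC trend removed (0.14, adjusted p = 0.0125).

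Proteases and a crosslinker that act on latent TGF-β or its carriers had 10 of 11 tested genes lower and none higher, with a median log2 fold change of -0.50, while 31.9% of all genes tested were lower. Htra1, a secreted serine protease gene, fell from 1901 to 1011 TPM, and Plat, the tissue plasminogen activator gene, from 313 to 176 TPM. Mmp14, a membrane metalloprotease gene, fell from 33.6 to 23.5 TPM and Ctsd, the cathepsin D gene, from 139 to 93.8 TPM. With trimmed mean factors 9 were lower, with quantile normalization 8 and with a length and GC trend removed 7. Over all genes tested, 5237 of 16413 were lower as deposited, 4285 with trimmed mean factors and 4233 with quantile normalization. With the length and GC trend removed, 3926 of 16402 were lower. The authors' deposited table called 10 of the 13 listed genes lower, against 16.7% of the 29420 genes tested there.

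Partners of fibrillin in microfibrils and elastic fibres went both ways, with 2 of 18 tested genes higher and 8 lower. The shares of all genes tested were 20.7% higher and 31.9% lower. The 8 include Adamtsl4, named after its values were seen, which like Fbn1 entered only through the WT libraries (0.861 against 1.52 TPM). It is thus also among the 38 lower genes over all lists by role. With trimmed mean factors 6 were lower and with quantile normalization 4. Over all 16413 genes tested, 4285 and 4233 were lower with these, against 5237 as deposited. Mfap2, a microfibril protein gene, rose from 431 to 520 TPM, Eln, the elastin gene, fell from 15.3 to 9.31 TPM, and Vcan, the versican gene, from 57.9 to 43.5 TPM. Adamts10, a secreted protease gene, fell from 52.4 to 42.0 TPM. Proteoglycans that bind TGF-β had 2 of 5 higher and 1 lower. Bgn, the biglycan gene, rose from 39.1 to 47.0 TPM and Lum from 1.57 to 2.65 TPM, while Fmod fell from 3.38 to 2.31 TPM.

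Receptors and SMADs had 3 of 10 higher and 2 lower, and TGF-β response genes had 4 of 19 higher and 10 lower. Among all genes tested 20.7% were higher and 31.9% lower. Eng and Acvrl1, which encode receptors of endothelium, rose from 56.2 to 81.3 and from 5.31 to 8.74 TPM, beside the endothelial markers given above. Tgfbr2, the type II receptor gene, rose from 7.77 to 10.6 TPM, and Tgfbr3, the betaglycan gene, fell from 3.10 to 2.02 TPM. Of the response genes, Ccn2, whose product is a secreted matrix-associated protein, dropped from 22.8 to 8.71 TPM and its relative Ccn1 from 614 to 475 TPM. Col1a2, a collagen gene that is also on the fibroblast list, fell from 29.8 to 17.5 TPM. Expression of Cdkn1a, which encodes p21, an inhibitor of the cell cycle, fell by 1.20 on the log2 scale from a WT mean of 65.4 TPM. Cdkn2b, another cell cycle inhibitor gene, named after its values were seen, went the other way, from 7.84 to 16.1 TPM. Markers of fibroblasts and meninges, cells known for fibrillin and LTBP production, had 3 of 9 tested genes higher and 5 lower, with a summed level of 184 to 194 TPM in the iKO libraries and 209 to 232 TPM in WT. Pericyte and smooth muscle markers had 2 of 9 higher and 4 lower, with a summed level of 600 to 627 TPM in the iKO libraries and 501 to 531 TPM in WT. Rgs5, at 474 against 363 TPM, made up most of that sum, and the other 9 markers summed to 132 to 144 TPM in iKO libraries and 147 to 157 TPM in WT libraries. Their part in the levels of Fbn1, Ltbp3 and Ltbp4 was not tested.

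**Figure D4:**
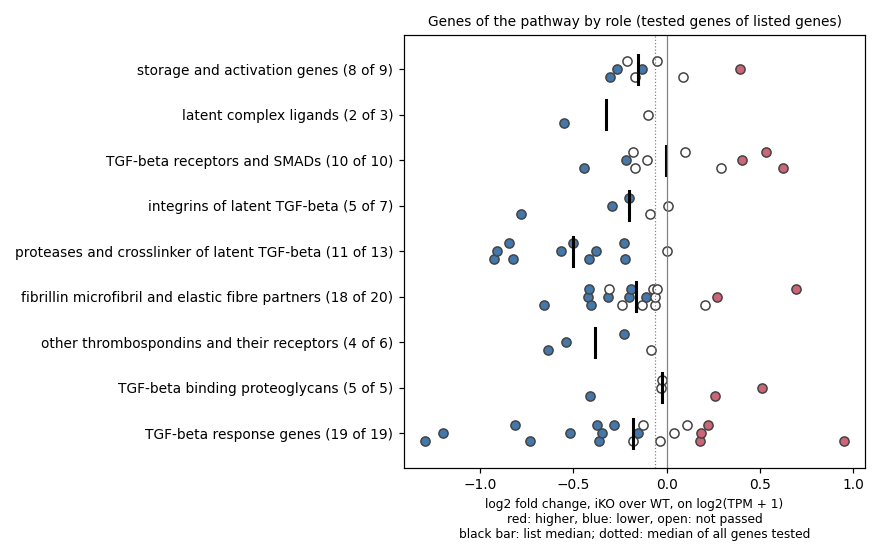
Log2 fold change of iKO over WT on log2(TPM + 1) (x axis) for the tested genes of each list by role; red is higher, blue lower, open not passed, and the black bar is the list median. The protease list has 10 of 11 genes in blue, and the 9 storage and activation genes, 8 of them tested, lie on both sides of 0.

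**Figure D5:**
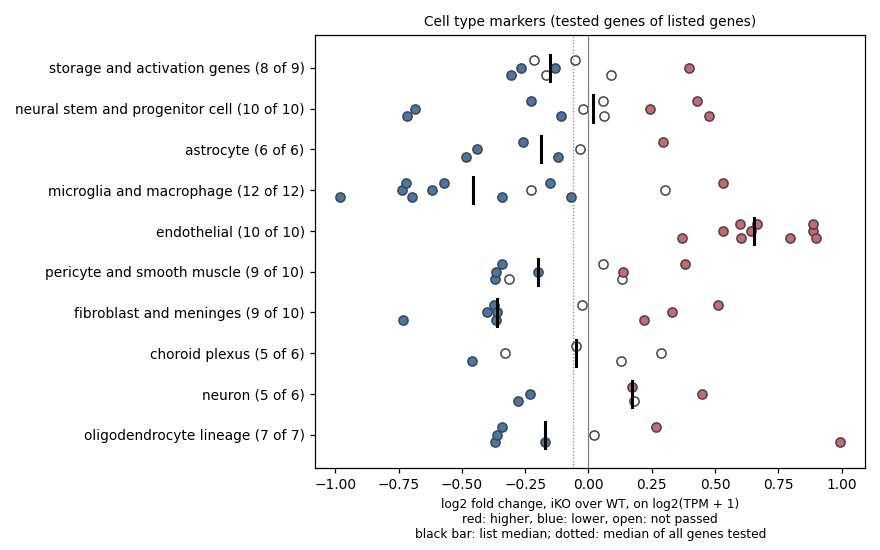
The same scale for cell type marker lists, without blood markers, whose rise would stretch the axis. Endothelial markers are higher in 10 of 10 cases and microglia and macrophage markers lower in 9 of 12, while NSPC markers are higher in 3 and lower in 4 of 10.

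Of the 10 NSPC markers, 3 were higher and 4 lower, where 20.7% of all genes tested were higher and 31.9% lower. The authors' deposited table called 5 of them higher and 3 lower, against 17.1% and 16.7% of the 29420 genes tested there. Blood and megakaryocyte markers had 4 of 5 tested genes higher and none lower, at a summed level of 649 to 804 TPM in the iKO libraries and 42.2 to 55.5 TPM in WT. The authors' deposited table called 4 of the 8 listed genes higher and 1 lower, against the same shares of 17.1% and 16.7%. Hba-a1, a haemoglobin gene, rose from 21.3 to 519 TPM. The platelet genes Pf4, Gp9, Ppbp and Itga2b were named after their values were seen. Pf4, also counted among the microglia and macrophage markers, rose from 14.3 to 20.9 TPM (limma adjusted p = 0.00696). For Pf4 the authors' deposited table gave 0.23 with an adjusted p of 0.427. Gp9 and Ppbp were at 0 in all WT libraries and in 3 of 4 iKO libraries each. Itga2b averaged 1.31 TPM in the iKO and 1.79 TPM in the WT libraries without passing (limma adjusted p = 0.237). The authors' deposited table called Itga2b lower (-0.82, adjusted p = 0.0123). Thrombospondin 1 and GARP are also platelet proteins, and the part of blood cells in Thbs1 and Lrrc32 was not tested.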

How the data were processed

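Per the labels' protocols, cDNA of sorted NSPCs was made by Smart-Seq2, which copies whole transcripts, and read from both ends. The deposited values per library were TPM for 55385 genes. A second deposited table held the authors' comparison, per the file headers a mean normalized signal, a log2 fold change with standard error, a test score, and unadjusted and adjusted p-values. No aligner, quantifier or genome build is named: each is not given in the sources used here. Depth is unknown.

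Genes with at least 1 TPM in at least 4 libraries entered a fit on log2(TPM + 1) by limma 3.58.1 (R 4.3.3) with trend and robust moderation, Benjamini-Hochberg adjustment over all genes and a threshold of 0.05. The member below the filter got an exact two-sided permutation test over 70 assignments. The procedure was tested on simulated data. Lists are described by counts and medians. The members and lists were chosen with earlier results of these data known. Named genes were the 9 members, Ash2l, Tgfb1, Tgfb2, Tgfb3, up to 4 genes per role list by smallest p, and up to 4 markers per cell type in listed order. For tested members, the 3 genes most like them were named too. Other genes are marked as named after their values were seen, except opposite-strand partners. Trimmed mean factors were computed on TPM without precision weights, and the loess span of the length and GC trend was 0.3 (GENCODE M21 transcripts, 99.9% of tested genes). No near-identical copy of a member was found (blastn 2.17.0). Figures used matplotlib 3.10.9 in Python 3.11.15. No column was left out.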

Additional observations from a re-analysis of the deposited data

Results flagged for a closer look

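In 2 of 18 groups of 4 libraries, 1 library stood far from the others for its gap over the range (critical value 0.829), and chance alone gives about 1 in 20 groups. Ltbp3 was 19.6 TPM in iKO replicate 3 against 23.7 to 24.2 TPM in the other iKO libraries. Without it the log2 fold change was -0.20 (limma adjusted p = 0.0246). Fbn1 was 0.910 TPM in iKO replicate 2 against 0.646 to 0.675 TPM in the other iKO libraries. Without it the log2 fold change was -0.36 (limma adjusted p = 0.018).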

How the results depend on the processing

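The replicate numbers did not pair the samples: deviations of same-numbered libraries correlated at -0.04 to 0.00. With the replicate block, 2 of the 9 genes were called in place of 4, with Nrros (adjusted p = 0.0544) and Fbn1 (0.0736) lost, and 8097 genes in place of 8629. Leaving out 1 library gave 2 to 3 of the 9 genes and 7808 to 8003 genes in all, and a log2 difference of -0.61 to -0.18 for Ltbp2. Trimmed mean factors left 2 of the 9 called, Ltbp4 higher and Fbn1 lower. Quantile normalization called 2, Ltbp1 and Ltbp4, both higher, and removing a length and GC trend called 1, Ltbp4. That last alternative was chosen after seeing the data. With the sex score as covariate, 423 genes and 0 of the 9 were called in limma; the score separates the groups, so this fit has little left to estimate, and its log2 fold changes were -0.35 for Ltbp3, 0.01 for Ltbp4, -0.09 for Nrros and -0.57 for Fbn1. Directions turned for Lrrc32 (0.49) and Itgav (0.0476) with the sex score, for Fbn2 without iKO replicate 4 (0.0059; range without 1 library -0.0862 to 0.0059), for Fbn2 (0.0705) with quantile normalization, for Fbn2 (0.0548), Itgav (0.0371) and Tgfb2 (0.0021) with the length and GC trend removed, and for Itgb8 without WT replicate 1 (-0.0283; range -0.0283 to 0.0263). The cause was not tested. Pseudocounts of 0.1 and 5 and no filter left 4 of the 9 called, and a mean TPM of at least 5 left 3 of the 4 that entered. TPM carries no depth, so it does not give the precision of low genes such as Ltbp2 and Fbn1. In the authors' deposited comparison the mean normalized signal of Ltbp2 was 10.9 and the standard error of its log2 fold change 0.423. For Fbn1 these were 90.3 and 0.143.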
